A study of Mus musculus with 1087 samples.

Results

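The 39 Hox genes of the mouse are described here in single cells sorted from the embryonic aorta region. The members were all protein-coding genes of the count table whose symbol is Hoxa, Hoxb, Hoxc or Hoxd followed by a paralog number: 11 Hoxa genes on chromosome 6, 10 Hoxb genes on chromosome 11, 9 Hoxc genes on chromosome 15 and 9 Hoxd genes on chromosome 2, of 46078 genes in all. RNAs transcribed from the opposite strand were not members. The genomic groups are called complexes A to D below, and "cluster" is kept for the numbered groups of cells.

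The series sequenced RNA from single cells of the aorta-gonad-mesonephros region, where hematopoietic cells emerge from the endothelium of the dorsal aorta and form clusters on its wall. All embryos carried the genotype Gata2V/+, in which Gata2, a transcription factor needed for this step, is linked to the fluorescent protein Venus. They came from C57BL/6HsdJOla wild-type females and Gata2V/V males, so no group lacks the allele. Dissected tissue took in the trunk parts of the vitelline and umbilical arteries, was digested with collagenase and was stained for CD31, cKit and CD27, and every sample name marks the cell as Kit-high. There were 87 cells of E10 G2VInt, which is 8.0% of all cells, and 130 cells (11.96%) of E11 G2VInt. E11.5 G2VInt made up 25.7% of all cells, E11.5 G2VLo 43.4% and E11.5 CD27+ 10.9%. G2VInt and G2VLo are the labels' names of 2 sort gates, which the labels do not spell out, and for CD27+ cells no Venus gate is named. The labels name no embryo or sort, so each group is 1 sample, its cells are not replicates, and no test was possible. The counting intervals below (exact Poisson for levels, Clopper-Pearson for shares, both at 95%) do not cover differences between embryos.

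The labels hold 2 clusterings, one of all cells and one without the CD27+ cells, and only the latter gives classes. Clusters below are those of the latter, except for CD27+ cells and where the clustering of all cells is named. The numbers match in part: 73.9% of cluster 7 and 85.9% of cluster 8 have the same number in the clustering of all cells, but only 11 of the 27 E10 cells of cluster 7 do, of which 16 are in 8 there, and 0 of 43 cells of cluster 9, of which 25 are in 8. Clusters 1 and 2 form class EC, 7 and 8 form HC1, 9 to 11 form HC2, and 5 and 6 form U1. The endothelial genes Pecam1, Cdh5, Kdr, Tek, Tie1, Emcn, Robo4 and Plvap summed to 7288 CPM (counts per 1000000 reads) in EC and 1750 CPM in HC1. The hematopoietic genes Ptprc, Runx1, Spi1, Spn, Myb and Itgb2 summed to 11.7 and 1070 CPM there. Macrophage genes summed to 13442 CPM in cluster 5 of the E11.5 G2VLo cells. The authors formed the clusters from the cells described here, so contrasts between clusters are descriptions. Reads per cell ran from 117369 to 6999570, with group medians of 1892779 to 2212898 for the 3 G2VInt groups and of 539090 and 621544 for G2VLo and CD27+. Library numbers form separate blocks for the 3 G2VInt groups, and the CD27+ numbers form 1 stretch between a lower and an upper stretch of G2VLo numbers, with 0 G2VLo numbers inside it. Library block, day and gate cannot be told apart. Levels are CPM of the reads summed over the cells of a set. Shares are of cells with at least 1 read after each cell was thinned to 100000 reads. There were 17 sets of 1 group and 1 cluster with 20 cells or more, 16 from the clustering without CD27+ cells and 1 (cluster 8 of CD27+) from that of all cells.

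Hox genes encode homeodomain transcription factors that give cells their position along the body axis, and within a complex the paralogs of higher number are used later and further towards the tail. Their proteins bind DNA together with TALE homeodomain partners of the Pbx and Meis families. Trithorax-type complexes around Kmt2a (MLL) keep active Hox genes on, and Polycomb complexes keep silent ones off. In blood, Hoxa genes around Hoxa9 are known for their use in stem and progenitor cells and for their part in leukemia with MLL rearrangements.

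Promoter sequences from RefSeq (GRCm38.p6) were matched for 22 of the 39 members, with 24 start sites. Shown are the 250 bases before the start of Hoxa9, the member with the highest level in the hematopoietic sets, of its neighbour Hoxa10, and of Hoxd8, which was measured in the endothelial sets. Capitals mark AGGAAG, a core letter string of ETS factors, or its reverse complement. Hoxa9, chromosome 6, 52227371 to 52227620, minus strand, inside the annotated gene but outside its exons; Hoxa10, chromosome 6, 52240855 to 52241104, minus strand, upstream of the gene; Hoxd8, chromosome 2, 74704365 to 74704614, plus strand, upstream of the gene.
Hoxa9: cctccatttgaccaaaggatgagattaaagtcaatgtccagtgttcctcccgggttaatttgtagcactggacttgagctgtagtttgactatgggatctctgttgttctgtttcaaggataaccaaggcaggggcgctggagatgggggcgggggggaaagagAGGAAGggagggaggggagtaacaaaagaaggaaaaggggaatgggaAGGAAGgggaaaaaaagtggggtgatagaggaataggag
Hoxa10: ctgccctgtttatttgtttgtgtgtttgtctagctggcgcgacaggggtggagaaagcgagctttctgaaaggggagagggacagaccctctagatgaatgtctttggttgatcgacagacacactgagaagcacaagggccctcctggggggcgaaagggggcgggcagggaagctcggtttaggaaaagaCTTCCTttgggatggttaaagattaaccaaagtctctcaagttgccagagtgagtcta
Hoxd8: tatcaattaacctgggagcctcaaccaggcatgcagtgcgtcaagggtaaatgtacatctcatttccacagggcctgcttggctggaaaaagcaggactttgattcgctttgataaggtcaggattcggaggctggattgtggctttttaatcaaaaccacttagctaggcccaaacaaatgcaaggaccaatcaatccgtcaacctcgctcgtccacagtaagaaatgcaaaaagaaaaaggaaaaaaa

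AGGAAG was found on either strand in 6 of the 24 member promoters (Hoxa3, Hoxa9, Hoxa10, Hoxa11, Hoxb1 and Hoxc4) and in 29.48% of 32851 promoters of all genes. The Hoxa9 window held it 2 times and that of Hoxd8 0 times. Hoxa10 has a second start site in the table, whose window (chromosome 6, 52234940 to 52235189, minus strand) is not shown and held it 0 times. TTTATG, a Cdx string, was in 5 of 24 (Hoxa7, Hoxb8, Hoxd3, Hoxd4 and Hoxd11) and in 10.8% of all promoters. AGATAA, known from GATA factors, was in 0 of 24 and in 9.99% of all. TGTGGT, a Runx string, was in 1 of 24 (Hoxd10) and in 14.05% of all, and TGACAG, a Meis string, in 2 of 24 (Hoxa2 and Hoxa3) and in 15.9% of all. Such matches are letters, not sites of binding.

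Of the 38 members described gene by gene, 10 reached 10 CPM in at least 1 of the 17 sets, 15 peaked between 1 and 10 CPM, and 13 stayed under 1 CPM in all 17. The 10 were Hoxa5, Hoxa7, Hoxa9 and Hoxa10 of complex A, Hoxb5, Hoxb7 and Hoxb9 of complex B, Hoxd8, Hoxd9 and Hoxd10 of complex D, and none (0) of the 9 Hoxc genes. Both endothelial clusters used complexes A, B and D. Clusters 7 and 8 used mainly complex A, and clusters 10, 11 and 5 had almost no Hox reads.

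**Figure D1:**
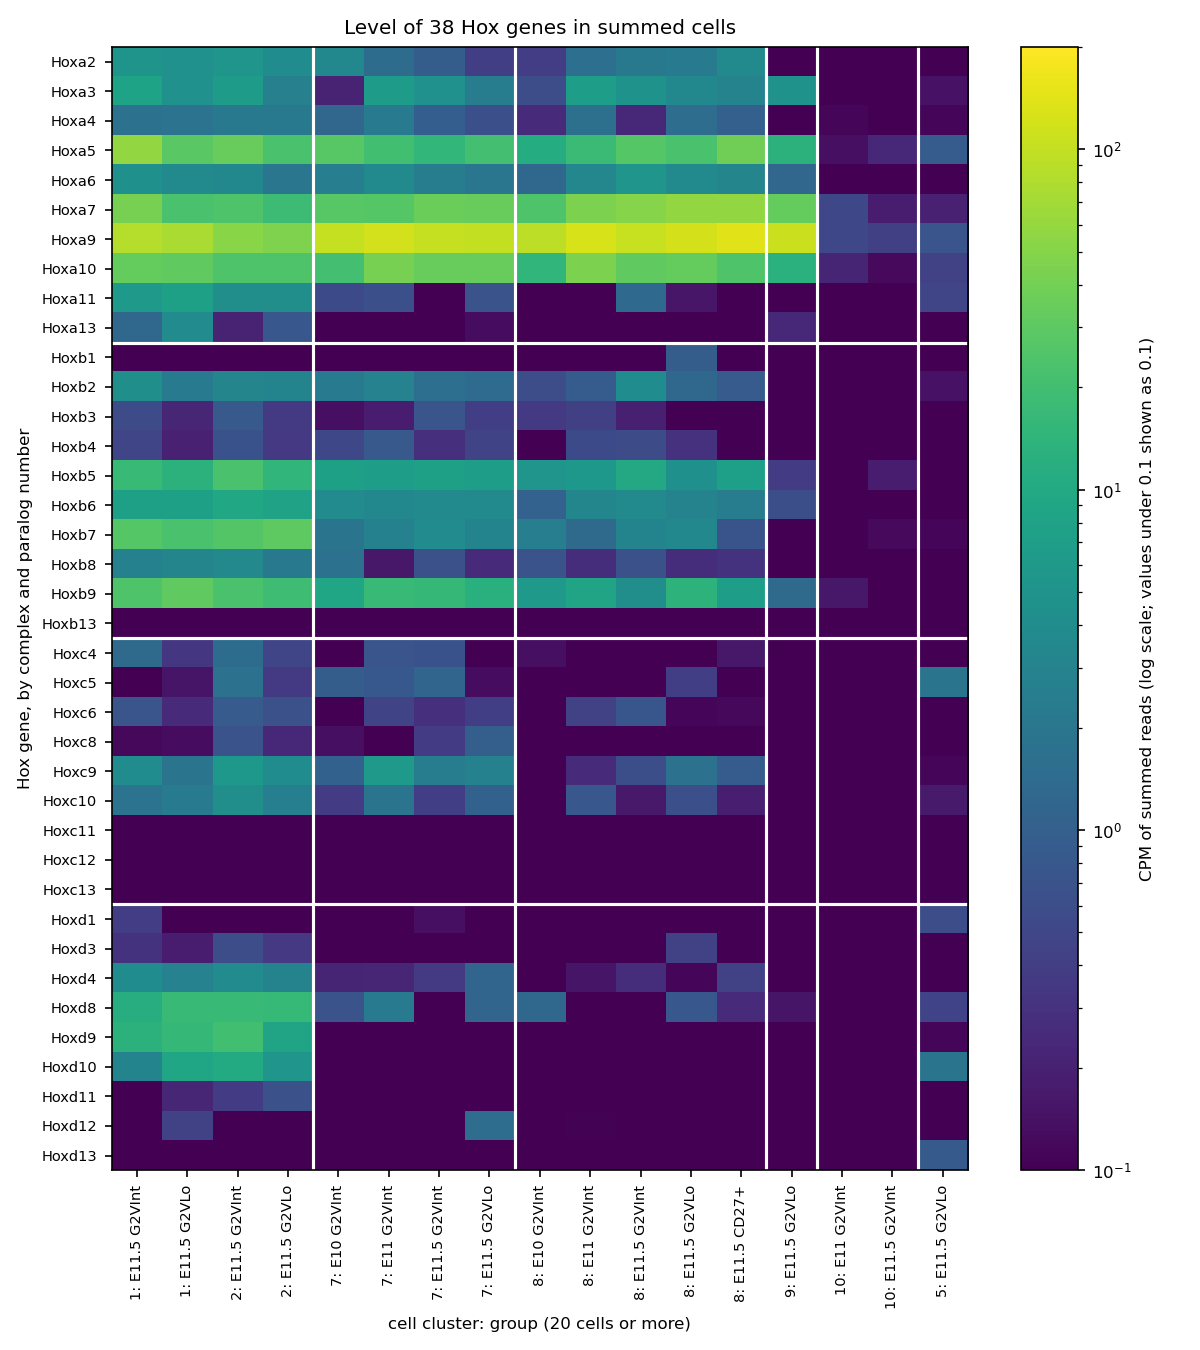
Level of 38 Hox genes (rows, by complex and paralog number) in the 17 sets of 20 cells or more (columns, cell cluster and group; the CD27+ column is its cluster 8), as CPM of summed reads on a log colour scale. Hoxa5, Hoxa7, Hoxa9 and Hoxa10 are bright in 14 of the 17 columns, Hoxd8, Hoxd9 and Hoxd10 in the columns of clusters 1 and 2, and the columns of clusters 10 and 5 are dark throughout.

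Complex A was the most used. Hoxa9, which encodes the factor best known for self-renewal of blood progenitors, had the highest level per kilobase of exon of any member in all 9 sets of clusters 7 and 8. In cluster 7 its level was 103.4 CPM at E10, 117.8 at E11, 103.6 in E11.5 G2VInt and 100.2 in E11.5 G2VLo. In cluster 8 it was 94.7, 126.5, 106.8 and 123.9 CPM in the same order, and 141.05 CPM in CD27+ cells. Cluster 1 had 86.96 (G2VInt) and 77.3 CPM (G2VLo), and cluster 2 had 52.5 and 46.1 CPM. The 9 sets of clusters 7 and 8 therefore all lay above the 4 endothelial ones. In cluster 10 Hoxa9 was at 0.523 CPM (E11) and 0.423 CPM (E11.5), and in cluster 5 at 0.743 CPM.

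Hoxa9 was read in 93.5% of thinned cells of cluster 8 in G2VLo (interval 86.3 to 97.6) and in 97.4% of those in G2VInt. It was read in 74.2% of cluster 2 in G2VLo (65.6 to 81.6). In cluster 5, the macrophage-type cells of the same gate, the share was 6.15% (1.70 to 15.01), which is taken as the background, with median depths of 488895 reads in cluster 5 and 466202 in cluster 8. Single cells spread widely: in cluster 8 of G2VLo the lowest, median and highest were 0, 115.3 and 360 CPM, and in cluster 2 they were 0, 36.5 and 236.7 CPM. The ranges of these clusters overlapped, while the highest cell of cluster 10 in E11.5 G2VInt was at 2.26 CPM.

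Hoxa7, which lies next to Hoxa9, was at 28.1, 26.98, 36.3 and 33.8 CPM in cluster 7 (E10, E11, E11.5 G2VInt, E11.5 G2VLo). In cluster 8 it was at 24.6, 44.4, 50.9 and 58.6 CPM, and at 58.7 in CD27+ cells. Clusters 1 and 2 had 41.9 and 24.7 CPM in G2VInt and 22.3 and 18.4 CPM in G2VLo. Exons of Hoxaas3 on the opposite strand overlap 20.4% of the Hoxa7 exon length. The strand setting of the counting is not given in the sources used here, so Hoxaas3 reads could not be kept apart there.

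Hoxa10, the paralog on the tail side of Hoxa9, was at 20.6, 42.7, 34.2 and 34.5 CPM in cluster 7 and at 14.9, 44.8, 31.5 and 33.3 CPM in cluster 8, with 24.8 CPM in CD27+ cells. In G2VInt it was at 33.1 CPM in cluster 1 and 24.7 CPM in cluster 2, and in G2VLo at 31.7 and 24.3 CPM. The 2 lowest values were those of E10. Endothelial and hematopoietic sets of Hoxa10 overlapped.

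Hoxa5, on the head side of Hoxa7, had its highest level in endothelial cluster 1 of G2VInt, at 59.1 CPM (57.9 to 60.3). Cluster 2 of G2VInt had 33.7 CPM, and G2VLo had 28.8 and 22.2 CPM in clusters 1 and 2. Cluster 7 had 27.5, 19.8, 15.2 and 20.3 CPM and cluster 8 had 10.9, 17.97, 26.7 and 22.7 CPM, with 38.7 CPM in CD27+ cells. Per kilobase of exon, Hoxa5 was above Hoxa9 in cluster 1 of G2VInt (31.5 against 15.6 CPM per kilobase) and below it in cluster 7 of the same gate (8.10 against 18.6). In thinned cells it was read in 89.7% of cluster 1 and 44.4% of cluster 7 in G2VInt.

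Hoxa2, Hoxa3, Hoxa4, Hoxa6, Hoxa11 and Hoxa13, peaked between 2.28 and 8.11 CPM. Hoxa11 was at 4.22 to 7.52 CPM in the 4 endothelial sets and at 0 to 1.33 CPM in the 9 sets of clusters 7 and 8.

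**Figure D2:**
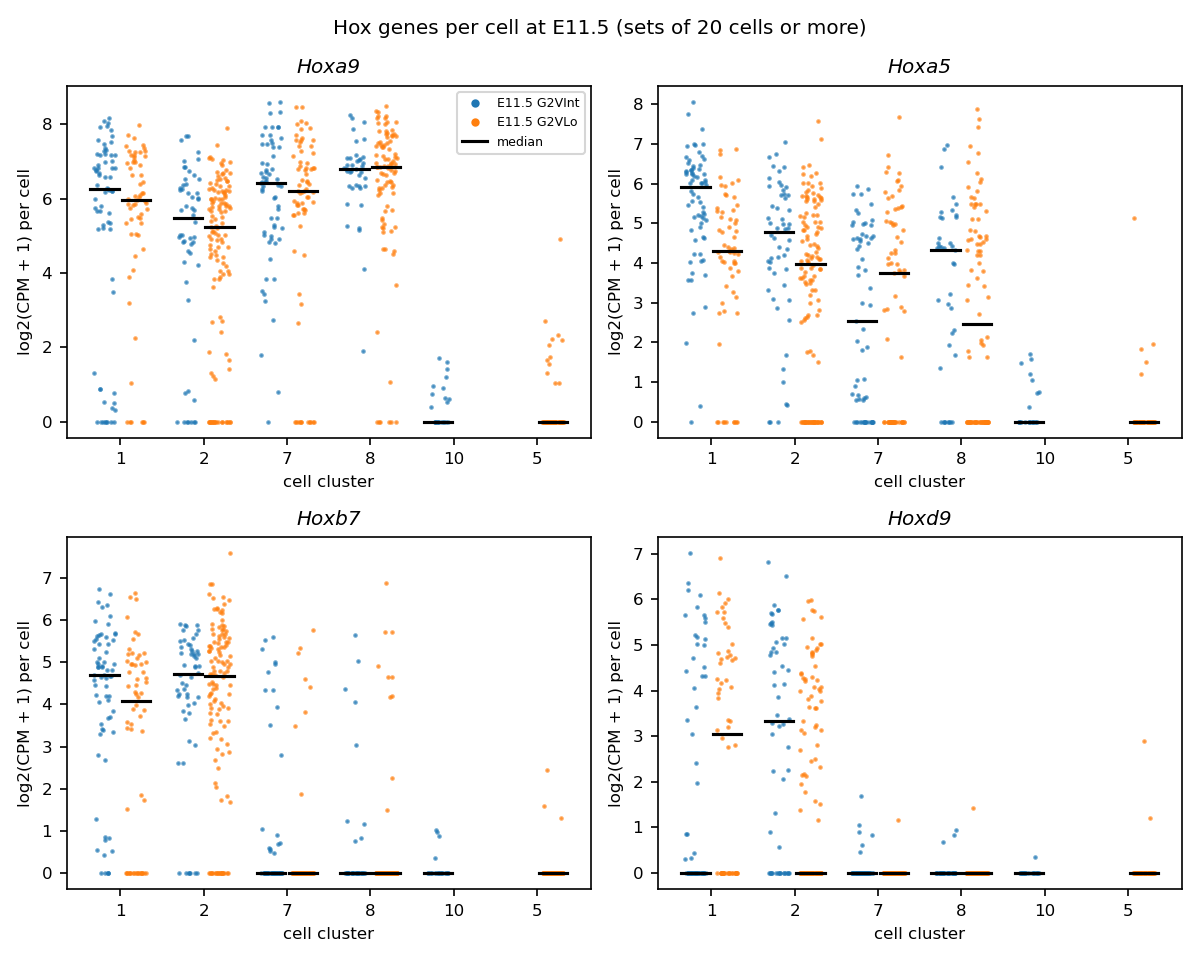
Level of 4 Hox genes in each E11.5 cell, as log2(CPM + 1), by cell cluster and gate (points are cells, black lines medians; sets of 20 cells or more). Hoxa9 medians lie high in clusters 1, 2, 7 and 8, Hoxb7 medians are above 0 in clusters 1 and 2 only, and Hoxd9 points are nearly all at 0 in clusters 7, 8, 10 and 5.

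Of complex B, Hoxb5, Hoxb7 and Hoxb9 reached 10 CPM. Hoxb7 was at 26.98 and 22.9 CPM in cluster 1 and at 25.9 and 30.2 CPM in cluster 2 (G2VInt, G2VLo). In the 9 sets of clusters 7 and 8 it ran from 0.724 (CD27+) to 3.89 CPM (G2VInt, cluster 7), so that no such set came near an endothelial one. It was read in 61.7% to 80.9% of thinned endothelial cells of these 4 sets, in 17.5% of cluster 7 in G2VInt and in 1.54% of cluster 5. Per kilobase, Hoxb7 had the highest level of all members in cluster 2 of G2VLo, 19.6 CPM per kilobase against 8.25 for Hoxa9. These values divide by all annotated exons of a gene merged, 1.544 kilobases for Hoxb7 and 5.58 for Hoxa9. Hoxa9 was the higher of the 2 in CPM. Hoxb5 was at 13.4 to 22.2 CPM in the endothelial sets and at 4.60 to 9.92 CPM in clusters 7 and 8. Hoxb9, at the tail side, was at 18.8 to 31.3 CPM in the endothelial sets, at 8.89, 16.8, 15.6 and 12.4 CPM in cluster 7, and at 6.12, 8.41, 4.32 and 13.6 CPM in cluster 8. Hoxb2, Hoxb6 and Hoxb8 peaked at 4.41, 9.58 and 3.57 CPM, all in endothelial sets. Hoxb3 and Hoxb4 stayed under 1 CPM in all 17 sets. Hoxb1 had 62 reads in 4 cells in all, 66.1% of them in 1 cell, and Hoxb13 had 4 reads.

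No member of complex C reached 10 CPM. Hoxc9 was at 4.02, 1.86, 5.80 and 4.05 CPM in the endothelial sets (cluster 1 in G2VInt and G2VLo, then cluster 2), at 1.06, 6.13, 2.43 and 2.86 CPM in cluster 7, and at 0.0136 to 1.78 CPM in cluster 8. The 6.13 CPM of cluster 7 at E11 rested for 28.95% on 1 cell. Hoxc10 peaked at 4.26 CPM in cluster 2 of G2VInt. Hoxc4 peaked at 1.49 CPM in cluster 2 of G2VInt, with 36.02% of the reads in 1 cell, and Hoxc5 at 1.86 CPM in cluster 5 of G2VLo, with all 65 reads in 1 cell. Hoxc6, Hoxc8, Hoxc11, Hoxc12 and Hoxc13 stayed under 1 CPM, Hoxc12 with 9 reads and Hoxc13 with 8 over all cells.

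Complex D split the classes. Hoxd8 was at 11.4, 17.4, 16.6 and 16.2 CPM in the endothelial sets and at 0.0455 to 2.33 CPM in clusters 7 and 8. Hoxd9 was at 13.1, 15.6, 19.95 and 8.54 CPM in the same endothelial sets and at most at 0.0678 CPM in the 9 sets of clusters 7 and 8. It had no read in cluster 8 of E10 and of E11, where 3 reads would be 0.0407 and 0.0352 CPM. Hoxd10 was at 3.12, 8.89, 10.3 and 5.22 CPM in the endothelial sets and at 0.0318 CPM at most in clusters 7 and 8. Of the 10.3 CPM of Hoxd10 in cluster 2 of G2VInt, 23.96% came from 1 cell. Within the endothelial sets Hoxd9 was in 31.5% to 53.7% of thinned cells and Hoxd10 in 11.8% to 28.3%. Hoxd4 was at 2.88 to 4.04 CPM in the endothelial sets. However, 52.3% of its exon length is shared with Hoxd3 or Gm28230 on the same strand, and reads there could not be assigned to 1 gene. For Hoxd3, 62.3% is shared with Hoxd4 or Gm28230, so the levels of both genes carry this limit. Hoxd1, Hoxd3, Hoxd11 and Hoxd13 stayed under 1 CPM, and Hoxd12 passed 1 CPM in 1 set only (1.496 CPM, cluster 7 of G2VLo), with all 47 reads in 1 cell.

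Counted per cell, the median number of members with a read in thinned cells was 9 in cluster 1 in both gates, 9 and 8 in cluster 2 (G2VInt, G2VLo), and 4 in cluster 7 of both. Cluster 8 had a median of 2 at E10, 5 at E11, 5 and 4 in E11.5 G2VInt and G2VLo, and 4 in CD27+ cells. In clusters 10 and 5 the median was 0. Over the 4 groups other than CD27+, 69.2% of cluster 10, 89.7% of cluster 11 and 58.6% of cluster 5 had no read of any member, against 0.483% of cluster 7 and 0.690% of cluster 1. Summed over the 39 members, levels were 388.4 CPM in cluster 1, 296.8 in cluster 2, 246.97 in cluster 7, 245.8 in cluster 8, 63.2 in cluster 9, 4.11 in cluster 10, 1.42 in cluster 11 and 8.41 in cluster 5. Cluster 9 was uneven, at 178.8 CPM in its 23 G2VLo cells and at 27.99 CPM in its 20 other cells, and cluster 10 was at 33.05 CPM in 7 G2VLo cells and 2.39 CPM in 45 others. The sum of complex A was 257.8 and 151.8 CPM in clusters 1 and 2 and 206.3 and 221.4 CPM in clusters 7 and 8. That of complex B was 87.2 and 86.2 against 32.2 and 22.2 CPM, and that of complex D was 36.1 and 46.1 against 1.86 and 0.830 CPM. In cluster 5 the sum of complex D was 3.20 CPM, above clusters 7 and 8.

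**Figure D3:**
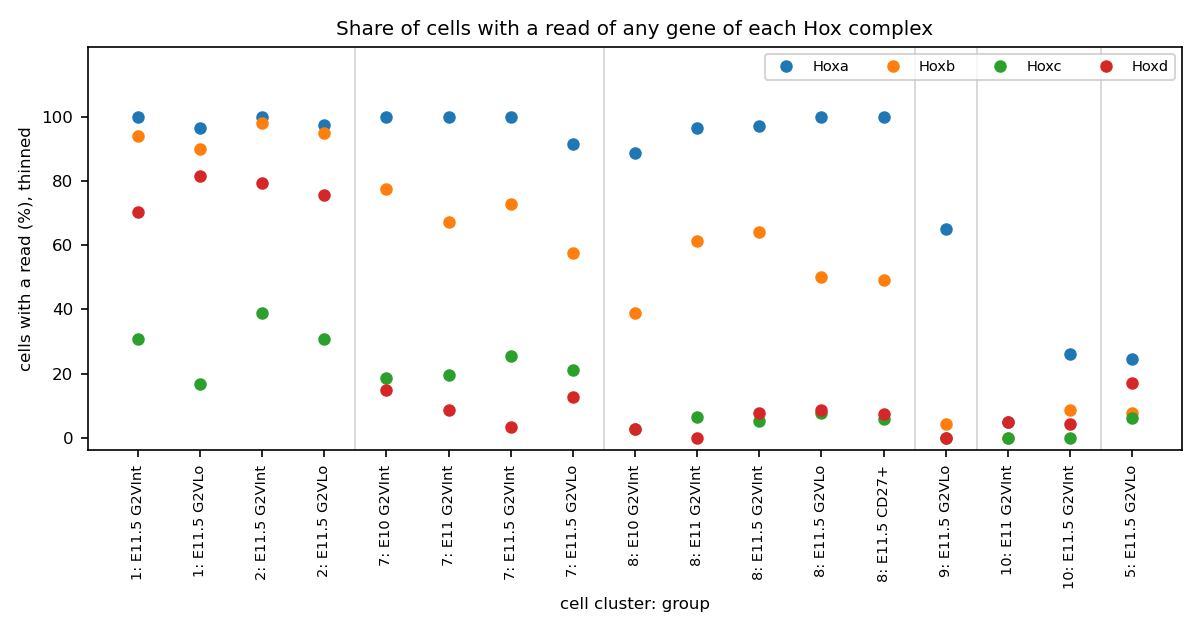
Share of thinned cells with a read of any gene of each Hox complex (y axis, percent) in the 17 sets (x axis, cell cluster and group). Hoxa points stay at 88.9% or higher in clusters 1, 2, 7 and 8. Hoxd points lie at 70.6% to 81.7% in clusters 1 and 2, at 14.8% or lower in clusters 7 and 8, and at 16.9% in cluster 5. Some markers overlap near 0.

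Cells of 1 set differed in which genes of complex A had a read after thinning. A gene without a read in a thinned cell is not shown to be unused there. Among the 68 thinned cells of cluster 1 in G2VInt, Hoxa7 was read in 44 of 50 cells with Hoxa9 (interval 75.7% to 95.5%) and in 5 of 18 cells without it (9.69% to 53.5%). Hoxa10 was read in 35 and 2 of the same cells. Hoxa5 was read in 44 and 17 of them. Its share in the whole set was 89.7%, too near the ceiling to show whether it followed Hoxa9 there. Depth differed little between cells with and without Hoxa9, with medians of 2184890 and 2220440 reads. In cluster 2 of G2VLo the shares with and without Hoxa9 were 70.7% of 92 and 40.6% of 32 cells for Hoxa7, 57.6% and 28.1% for Hoxa10, and 63.04% and 53.1% for Hoxa5. In cluster 7 of G2VLo, Hoxa5 and Hoxa10 were each read in 31 of 59 cells with Hoxa9 and 3 of 12 without it, with overlapping intervals. Hoxa5 went the other way in cluster 2 of G2VInt, in 28 of 41 and 12 of 13 cells, also with overlapping intervals. Lower shares without Hoxa9 were not seen in every set for Hoxa7 or Hoxa10 either. In cluster 7 of G2VInt Hoxa7 was read in 61.4% of 57 cells with Hoxa9 and 83.3% of 6 without it, and in cluster 8 of G2VLo in 84.9% of 86 and 83.3% of 6 cells. Hoxa10 was read in 54.4% and 66.7% of the same cells in cluster 7 of G2VInt, and in 60.5% and 33.3% in cluster 8 of G2VLo. Of the 68 cells of cluster 1 in G2VInt, 13 (19.1%, 10.6 to 30.5) had Hoxa5 without Hoxa7, Hoxa9 or Hoxa10. That share was 11.1% in cluster 2 of G2VInt, 5.00% and 8.06% in clusters 1 and 2 of G2VLo, and 1.59% in cluster 7 of G2VInt. It was 0 of 39 and 0 of 92 cells in cluster 8 of G2VInt and G2VLo and 0 of 71 in cluster 7 of G2VLo, where the Clopper-Pearson upper limits are 9.03%, 3.93% and 5.06%. The floor of 3 cells would be 7.69%, 3.26% and 4.23%.

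**Figure D4:**
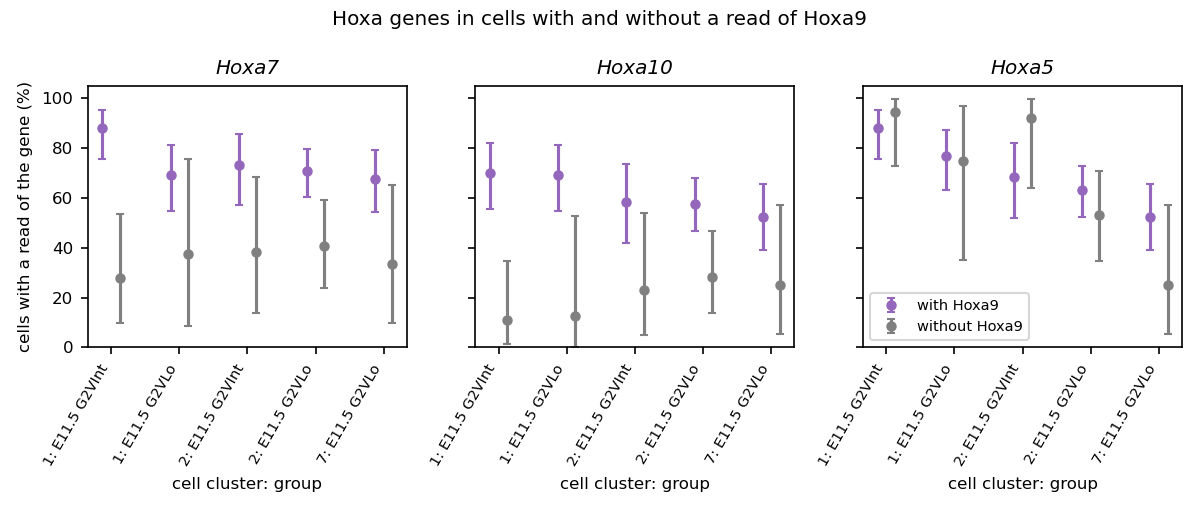
Share of thinned cells with a read of Hoxa7, Hoxa10 or Hoxa5 (y axis, percent, with Clopper-Pearson intervals) among cells with and without a read of Hoxa9, in 5 sets (x axis: clusters 1 and 2 in both E11.5 gates and cluster 7 of G2VLo). Points for Hoxa7 and Hoxa10 lie lower in cells without Hoxa9 in these 5 sets, with overlapping intervals in several. Cluster 7 of G2VInt, which is not plotted, went the other way for Hoxa7 (61.4% with and 83.3% of 6 cells without Hoxa9) and for Hoxa10 (54.4% and 66.7%). Hoxa5 points of clusters 1 and 2 lie close together or the other way round. In cluster 7 of G2VLo the Hoxa5 point lies lower without Hoxa9 (31 of 59 cells with and 3 of 12 without), with overlapping intervals.

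In complex D, Hoxd10 was read in 44.8% of 29 cells with Hoxd9 and 8.00% of 25 cells without it in cluster 2 of G2VInt, and in 44.8% of 29 and 12.9% of 31 cells in cluster 1 of G2VLo. Hoxd8 was read in 19 of 29 and 11 of 25 cells with and without Hoxd9 in cluster 2 of G2VInt, and in 46.2% and 54.1% in cluster 2 of G2VLo. These shares are counts within 1 sample each and carry no test.

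The contrasts between sets use ratios of CPM. A gene counts as measured with 10 CPM and a read in 5% of thinned cells on the same side, and as called when the ratio is 2-fold or more. The filter favours a difference, though not always of 2-fold, in members that pass through their high side only. The counts below therefore describe these members and are read against the percentage called among all measured genes. In cluster 7, of class HC1, over cluster 2, of class EC, 10 of the 39 members were measured in G2VInt. There, 6 were called lower (Hoxa5, Hoxb5, Hoxb7, Hoxd8, Hoxd9 and Hoxd10), where 11.1% of all measured genes were, and 0 were called higher, where 13.3% were. In G2VLo 8 were measured, with 3 called lower (Hoxb5, Hoxb7 and Hoxd8; 11.4% of all genes) and 1 higher (Hoxa9; 14.3% of all genes). Cluster 7 was not contrasted with endothelial cluster 1. By the levels above, Hoxa7 was lower in cluster 7 than in cluster 1 in G2VInt and higher in G2VLo. Hoxa9 and Hoxa10 of cluster 7 lay closer to cluster 1 than to cluster 2 in both gates.

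On the log2 scale, Hoxb7 was at -2.74 in G2VInt (-2.89 to -2.59) and -3.28 in G2VLo, Hoxd8 at -7.57 and -3.75, and Hoxd9 at -8.20 in G2VInt. Hoxa9 went the other way, with 0.98 in G2VInt (0.94 to 1.03) and 1.12 in G2VLo (1.05 to 1.19). Hoxa7 was at 0.56 and 0.88 and Hoxa10 at 0.47 and 0.50. The median of all measured genes was 0.16 in G2VInt and 0.20 in G2VLo, and TMM scaling lowers each ratio by 0.15 and 0.22. Hoxa9 in G2VLo then came to 0.90, under 2-fold, and it was 0.93 with the clustering of all cells. Hoxa5 was called lower in G2VInt (-1.15) and stood at -0.13 in G2VLo. In G2VInt it was at -0.74 among the lower library numbers, -0.95 without cells bearing markers of other tissues and -0.73 with the clustering of all cells, each under 2-fold.

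**Figure D5:**
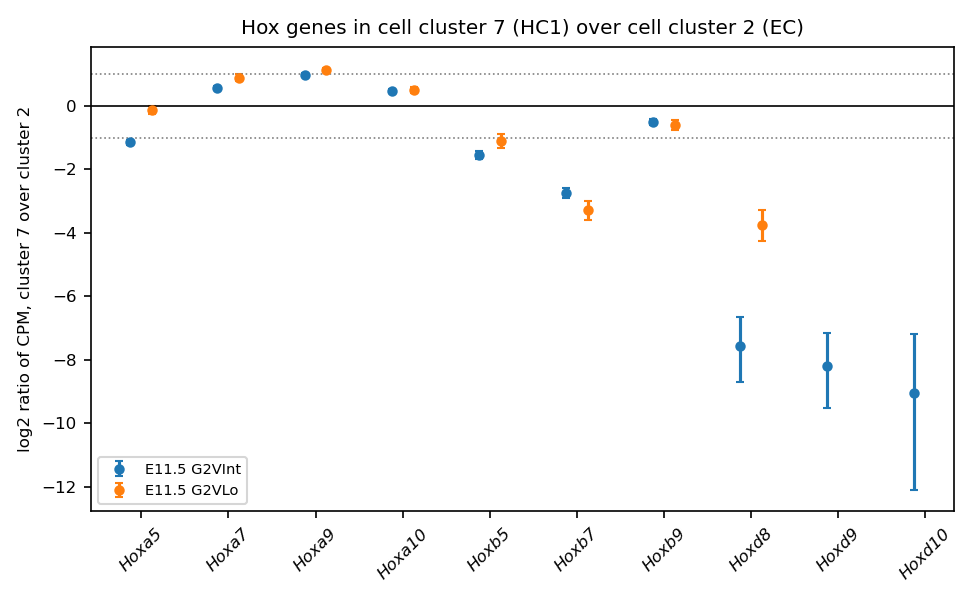
Log2 ratio of CPM in cluster 7 over cluster 2 (y axis) for the members measured in each E11.5 gate (x axis; bars are Poisson intervals of counting error, dotted lines mark 2-fold). Hoxa7, Hoxa9 and Hoxa10 lie above 0 in both gates, Hoxb5, Hoxb7, Hoxb9 and Hoxd8 below it in both, and Hoxd9 and Hoxd10 were measured in G2VInt only.

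Between the 2 HC1 clusters at most 1 member was called in each group. In cluster 8 over 7, 1 of 4 measured members was called lower at E10 (Hoxa5, 10.9 against 27.5 CPM, -1.33; 5.56% of all genes). At E11, 0 of 5 were called (9.50% of all genes in either direction). In E11.5 G2VInt, 1 of 5 was called lower (Hoxb9, -1.85; 5.79% of all genes), and it was at -0.32 among the lower library numbers. In G2VLo, 0 of 5 were called (7.52% of all genes in either direction). Hoxa7 was at 0.72, 0.49 and 0.79 in the E11, E11.5 G2VInt and E11.5 G2VLo contrasts, below 2-fold in all 3.

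The other hematopoietic clusters and the macrophage-type cells had fewer Hox reads. Cluster 9 of G2VLo had the early myeloid genes Mpo at 1878 CPM and Prtn3 at 279.6 CPM, against 348.7 and 101.9 CPM in cluster 8, while Ms4a3 was at 15.1, Elane at 0.699 and Ctsg at 0 CPM. It had Hoxa9 at 109.7 CPM against 123.9 CPM in cluster 8, but in 56.5% of cells (34.5 to 76.8) against 93.5%, and 25.7% of its Hoxa9 reads came from 1 cell. There, 2 of 5 measured members were called lower than in cluster 8 (Hoxa10, -1.36, and Hoxb9, -3.28; 9.83% of all genes). Hoxb9 was at -0.78 without cells bearing markers of other tissues. Cluster 10 of E11.5 G2VInt had the mast and basophil genes Hdc at 518.6 and Cpa3 at 227.4 CPM, against 3.49 and 0.516 CPM in cluster 8, and Ms4a2 and Fcer1a at 0. Gata2 and Kit, of the same list, were at 702.8 and 535.07 CPM in cluster 10 and at 173.7 and 587.1 CPM in cluster 8. The erythroid genes Gata1 and Klf1 were at 409.02 and 174.5 CPM in cluster 10, and the globin gene Hba-a1 at 1.36 CPM. Cluster 10 had all 4 measured members (Hoxa5, Hoxa7, Hoxa9 and Hoxa10) called lower than in cluster 8, both at E11 (18.3% of all genes) and at E11.5 (15.7%). The ratios ran from -6.41 to -7.92 at E11 and from -6.79 to -8.13 at E11.5. In cluster 5 over 8 of G2VLo, all 5 were called lower (29.1% of all genes), from -4.63 to -8.89, where the median of all genes was -0.49 and TMM scaling raises each ratio by 0.42.

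Within the endothelium, cluster 1 over 2 had 1 of 10 measured members called lower in G2VInt (Hoxd10, -1.73; 1.34% of all genes) and 0 of 9 called in G2VLo (5.50% of all genes in either direction). Among the upper library numbers Hoxd10 reversed to 0.96, and without cells bearing markers of other tissues it was at -0.58. Without the cell with most Hoxd10 reads, Hoxd10 no longer passed 10 CPM. Hoxa9 was at 0.73 and 0.75 in the 2 gates, under 2-fold.

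By day, Hoxa10 was the only member called inside both HC1 clusters. From E10 to E11 it went from 20.6 to 42.7 CPM in cluster 7, a log2 ratio of 1.05 (0.96 to 1.14) and 1 of 5 measured members called higher (8.17% of all genes), and to 0.79 with the clustering of all cells. In cluster 8 it went from 14.9 to 44.8 CPM, 1.59 (1.49 to 1.69), as 1 of 4 measured members called higher (6.07% of all genes). Without the Hoxa10 top cell of each set, cluster 8 stood at 13.3 and 41.3 CPM. The share of thinned cells with Hoxa10 was 51.9% and 50.0% in cluster 7 and 38.9% and 64.5% in cluster 8. Hoxa9 differed by 0.19 and 0.42 over the same days. In all cells, 0 of 5 members were called (4.97% of all genes in either direction), with Hoxa10 at 0.94.

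From E11 to E11.5, 0 of 5 measured members were called in cluster 7 (3.88% of all genes in either direction). In cluster 8, 0 of 4 were called (6.35% of all genes in either direction). In all cells, 1 of 7 was called higher, Hoxb7, from 4.74 to 14.97 CPM (1.66, beside 5.28% of all genes). Endothelial cluster 1 made up 5.38% of the cells at E11 and 24.4% at E11.5, and endothelial cluster 2 made up 6.15% and 19.4%. Mixes of clusters differ between the groups of all cells, so fewer cells of a type and less RNA per cell cannot be told apart there.

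By sort gate at E11.5, G2VInt over G2VLo, 0 of 7 measured members were called in all cells (3.34% of all genes in either direction; median of all genes 0.18) and 0 of 5 in cluster 7 (5.58%). In cluster 1, 1 of 9 was called higher, Hoxa5, 59.1 against 28.8 CPM (1.04; 3.32% of all genes), and it was 0.95 with TMM scaling. In cluster 2, 1 of 10 was called higher, Hoxd9, 19.95 against 8.54 CPM (1.22; 1.41% of all genes). In cluster 8, 1 of 5 was called lower, Hoxb9, 4.32 against 13.6 CPM (-1.65; 1.73% of all genes), with 43.5% of the G2VInt reads and 13.1% of the G2VLo reads in 1 cell each. Hoxa9 lay between -0.21 and 0.19 in all 4 clusters.

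In CD27+ cells over all G2VLo cells, 1 of 6 measured members was called higher, Hoxa5, 38.5 against 18.5 CPM (1.06; 2.08% of all genes), and 1 lower, Hoxb7, 5.48 against 13.95 CPM (-1.35; 5.91% of all genes). Hoxa5 was at 0.63 among the lower library numbers, 0.95 without its top cell and 0.79 without cells bearing markers of other tissues, and Hoxb7 at -0.53 among the upper. Hoxa7 and Hoxa9 were at 0.99 and 0.81. Inside cluster 8 of the clustering of all cells, with 69 CD27+ cells, 0 of 4 measured members were called (3.22% of all genes in either direction). There Hoxa5 was at 0.85, Hoxa9 at 0.19 and Hoxa10 at -0.36.

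The members at the tail end of complex D were concentrated in few cells. When all cells were clustered together, cluster 4, 41 cells with 4.57% of all reads, held 579 of 613 Hoxd13 reads (94.5%), 67.3% of Hoxd12 reads, 36.6% of Hoxd11, 18.9% of Hoxd10, 56.8% of Hoxc11, 44.1% of Hoxc5, 26.8% of Hoxc10 and 18% of Hoxa13. Hoxd13, the last gene of the complex and a factor of limb and genital development, passed 10 CPM in 8 cells, 7 of them in this cluster. Single cells held much of this. Without the top cell of each gene, cluster 4 held 89.9% of the Hoxd13 reads, 53.02% of Hoxd12, 26.7% of Hoxd11, 14.9% of Hoxd10, 30.4% of Hoxc11, 32.9% of Hoxc5, 19.3% of Hoxc10 and 5.69% of Hoxa13. Its 9 CD27+ cells had Hoxd13 at 39.9 CPM, Hoxd12 at 26.6, Hoxd10 at 31.05 and Hoxc5 at 36.8 CPM, and 12.98, 7.32, 20.5 and 7.501 CPM without the top cell of each. The same cell gave 71.2% of their Hoxd13 and 75.7% of their Hoxd12 reads. The 32 other cells of cluster 4 had 5.47, 2.18, 9.64 and 5.11 CPM, and 0.603, 0.567, 6.92 and 1.95 CPM without the top cell of each. There 1 cell, of E11, gave 89.3% of the Hoxd13 and 74.8% of the Hoxd12 reads. The mesenchymal genes Pdgfra, Pdgfrb, Col1a1, Col1a2, Col3a1, Postn, Twist1, Twist2, Prrx1, Dcn and Lum summed to a median of 118.8 CPM per cell there, against medians of 0 to 23.5 CPM in the other 11 clusters. Of all cells with 100 CPM or more of these genes, 22 (21.8%) were in cluster 4. The cluster was mixed. Its median of the summed endothelial genes was 3229.7 CPM per cell, and 38 of the 41 cells had 100 CPM or more of those. For macrophage genes, 6 cells did. The part of any of these marker lists in the Hox levels of cluster 4 was not tested. Hoxa9 in cluster 4 was at 34.5 CPM. In the 17 sets used above the mesenchymal genes summed to 13.4 to 56.2 CPM, and Lum or Twist2 was at 0 in 14 of them. Leaving out the cells with 100 CPM of them moved 1 of the 25 counts of called members beyond a set tolerance, that of cluster 1 over 2 in G2VInt. There Hoxd10 no longer passed the filter and its ratio was -1.57. Smaller changes in the other counts are not listed.

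Among the TALE partners of Hox proteins, 5 of 8 genes were measured in cluster 7 over 2 of G2VInt and 4 in G2VLo, with 1 called higher (Meis1) and 1 lower (Pbx3) in each. Of all genes, 13.3% were called higher and 11.1% lower in G2VInt, and 14.3% and 11.4% in G2VLo. Meis1 was at 308.8 and 268.2 CPM in cluster 7 and 17.5 and 13.9 CPM in cluster 2. Pbx3 was at 14.1 against 37.3 CPM in G2VInt. In cluster 10 of E11.5 G2VInt, where Hox reads were nearly absent, Meis1 was still at 236.3 CPM, and in cluster 5 of G2VLo it was at 12.52 CPM. Meis2 differed by day, at 8.27 CPM at E10 and 53.1 CPM at E11 in cluster 7 and at 3.05 and 17.5 CPM in cluster 8. The caudal genes Cdx1, Cdx2 and Cdx4, which switch on Hox genes in the early embryo, and Gsx1, Gsx2 and Pdx1 were measured in none of the comparisons (0 of 6).

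The MLL complex and its partners were measured in full (10 of 10) in cluster 7 over 2, with 1 called higher in G2VInt and 2 in G2VLo, near the 13.3% and 14.3% of all genes. Mllt3, a reader of active chromatin and a partner in MLL fusions, was at 125.6 CPM in cluster 7 against 16.6 CPM in cluster 2 of G2VInt, and at 9.49 CPM in cluster 10. Men1, which tethers MLL at Hox genes, was at 167.2 and 157.3 CPM in clusters 7 and 2 of G2VInt, and at 79.9 CPM in cluster 10. Of the Polycomb genes, 12 of 15 were measured in G2VInt with 3 called higher (Cbx6, Cbx7 and Jarid2; 13.3% of all genes), and 10 in G2VLo with 1 higher (Cbx6; 14.3% of all genes). In cluster 10 over 8 of E11.5 G2VInt, 3 of 10 MLL genes and 4 of 12 measured Polycomb genes were called lower, beside 15.7% of all genes. In cluster 5 over 8, 6 of 10 MLL genes and 5 of 11 Polycomb genes were called lower, beside 29.1% of all genes.

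Retinoic acid, a signal that sets Hox expression along the axis, is read by the Rar receptors. In cluster 7 over 2, 3 of 7 measured pathway genes were called lower in G2VInt (Rara, Rarb and Rxra; 11.1% of all genes) and 2 of 7 in G2VLo (Rara and Rarb; 11.4% of all genes), and none (0) higher. Rara was at 9.40 against 25.4 CPM and Rarb at 12.97 against 30.5 CPM in G2VInt. Cyp26b1, which breaks retinoic acid down, was at 38.4 CPM in cluster 7, 14.2 in cluster 8 and 0.121 CPM in cluster 10. Of 8 genes known as targets of Hoxa9 and Meis1, 7 were measured in cluster 7 over 2 in each gate, with Flt3 and Myb called higher (13.3% and 14.3% of all genes in G2VInt and G2VLo) and Id2 and Bcl2 lower (11.1% and 11.4%) in both. Myb was at 166.8 CPM in cluster 7 and 250 CPM in cluster 10 of E11.5 G2VInt, and Flt3 at 15.2 and 4.63 CPM. At E11 Flt3 went the other way, with 1.93 CPM in cluster 7 and 44.3 CPM in cluster 10. Of the genes that flank the complexes, 7 of 8 were found in the table, Evx1 and Evx2 were near 0 in both classes, and Mtx2, beside complex D, was at 122.1 CPM in cluster 7 and 138.8 CPM in cluster 2, beside Hoxd9 at 0.0678 and 19.95 CPM.

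Opposite-strand RNAs of the complexes were low over all cells, led by Hoxd3os1 (3.28 CPM), Hoxa11os (3.01), Hoxaas3 (2.55) and Hoxaas2 (2.30). They overlap 52.9% of the exon length for Hoxb3 and 34.98% for Hoxa11. Hoxa5, Hoxa10, Hoxb7, Hoxb9, Hoxd8 and Hoxd9, on which most contrasts above rest, share no exon base with another annotated gene.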

How the data were processed

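The authors deposited raw read counts per Ensembl gene and cell, made with HTSeq 0.6.0 on GRCm38 per the submitters' processing notes; the aligner, annotation release and strand setting are not given in the sources used here. There are no molecular identifiers, so PCR copies were counted. Symbols (GENCODE M21) matched 45143 of 46078 genes. Depth ran from 117369 to 6999570 reads per cell.

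Counts were summed per group and cluster and given as CPM, levels between genes as CPM per kilobase of exon. The exon length merged all annotated exons of a gene, 5.58 kilobases for Hoxa9, 1.877 for Hoxa5 and 1.544 for Hoxb7. Isoforms were not told apart, so rankings between genes depend on these lengths. Shares used cells thinned to 100000 reads. Intervals (95%) and floors (3 reads) cover counting error only. No p-value was computed, since each group is 1 sample. Ratios were formed over all genes, with 10 CPM, a 5% share and 2-fold as limits, and were tested on simulated data. Alternatives included TMM (edgeR 4.0.16) and median-of-ratios scaling (DESeq2 1.42.0). Cells bearing markers of other tissues had 10 CPM or more of summed mesenchymal, urogenital, germ cell and neural genes, without Krt8, Krt18, Stmn2 and Tubb3. They were 51.9% (E11.5 G2VLo) to 71.3% (E10 G2VInt) of the cells of a group, so ratios without them rest on far fewer cells. Python 3.11.15, numpy 2.4.6, pandas 2.3.3, scipy 1.17.1 and R 4.3.3 were used. Sums over a complex and counts per cell use all 39 members. 1 member and 1 cofactor are not reported here, and counts of called genes leave them out. Other members with 10 CPM in a set are given in full, and other lists by their highest levels and ratios. Members and lists were chosen with earlier results of these data known. Lower and upper library numbers split each group at its median library number.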

Additional observations from a re-analysis of the deposited data

How the results depend on the processing

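The counts of members called 2-fold apart were small and moved with the settings, and no cause was tested. Listed below are counts that moved beyond a set tolerance, so counts not listed may have changed by less. With 1 CPM and no share filter, more genes of all kinds were measured and called. Cluster 7 over 2 had 15 of 23 members called in G2VInt, where 32.9% of all genes were, and 15 of 22 in G2VLo, where 34.4% were (6 of 10 beside 24.4% and 4 of 8 beside 25.7% as reported, either direction). Over the 25 comparisons the share of all genes called ran from 7.80% to 48.5% under this filter and from 1.67% to 42.1% as reported. In the other comparisons cluster 8 over 7 had 7 at E10, 4 at E11, 7 in G2VInt and 4 in G2VLo; cluster 9 over 8 had 10, cluster 10 over 8 12 at E11 and 13 at E11.5, cluster 1 over 2 4 and 2, and cluster 5 over 8 16. E11 over E10 then had 6 in all cells and 7 in each of clusters 7 and 8, and E11.5 over E11 6, 4 and 4. The gates had 5, 4, 5 and 6 in clusters 1, 2, 7 and 8, and CD27+ cells 10 in all cells and 4 in cluster 8.

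With the mean of per-cell CPM, cluster 8 over 7 had 2 at E10, cluster 1 over 2 in G2VLo 1, and the gates 2 each in clusters 1, 2 and 8. With TMM or median-of-ratios scaling, cluster 8 over 7 at E11 had 1, E11.5 over E11 in all cells 3, and the gates in cluster 1 0.

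Without cells bearing markers of other tissues, cluster 8 over 7 had 3 at E10, 1 at E11 and 4 in G2VInt, cluster 1 over 2 had 2 in G2VInt and 1 in G2VLo, E11 over E10 1 in all cells and 4 in cluster 8, E11.5 over E11 2 and 3, the gates in cluster 7 1, and CD27+ cells in cluster 8 1.

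Among lower library numbers, cluster 8 over 7 had 2 in G2VLo, cluster 9 over 8 4, cluster 1 over 2 3 and 1, E11 over E10 1 in all cells, 2 in cluster 7 and 3 in cluster 8, E11.5 over E11 2 in all cells and 1 in cluster 8, the gates 2, 2 and 1 in clusters 1, 2 and 7, and CD27+ cells 1. Among upper numbers, cluster 8 over 7 had 1 at E11, 2 in G2VInt and 1 in G2VLo, cluster 9 over 8 1, cluster 1 over 2 in G2VLo 1, E11.5 over E11 in all cells 2, the gates 1 in all cells and 3, 2 and 0 in clusters 1, 2 and 8, and CD27+ cells in cluster 8 1. Hoxd10 in cluster 1 over 2 of G2VInt reversed to 0.96.

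With the clustering of all cells, cluster 8 over 7 in G2VLo had 1, cluster 9 over 8 5 (number 9 there holds 0 of the 43 cells of the reported cluster 9), cluster 1 over 2 in G2VInt 3, E11 over E10 in cluster 7 0, and the gates 0, 2 and 0 in clusters 1, 2 and 8. Without the top cell of each gene, cluster 8 over 7 at E11 had 1, cluster 1 over 2 in G2VInt 0, E11.5 over E11 in all cells 2, and CD27+ cells 1. Without cells with 100 CPM of mesenchymal markers, an alternative added after seeing the data, cluster 1 over 2 in G2VInt had 0.

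The median number of members per cell was 17, 8 and 1 with all reads in cluster 2 of G2VInt, cluster 8 of G2VInt and cluster 5 of G2VLo, and 3 and 5 with at least 2 reads in cluster 8 of G2VInt and cluster 2 of G2VLo. No paired analysis was possible because each group is 1 sample. Members with levels under 1 CPM rest on few cells, and depth limits what their shares can show.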
